A study of Mus musculus with 32 samples.

Results

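The cathepsins and legumain are the proteases that digest protein inside the lysosome. The 10 genes described here were Ctsa, Ctsb, Ctsc, Ctsd, Ctsh, Ctsk, Ctsl, Ctss, Ctsz and Lgmn, of 23620 genes that stood in both RNA-seq tables. They were chosen as a named family, each found once by its symbol in the tables of both cell types, together with the IGF2BP3 eCLIP peaks that carry its Ensembl gene ID. The choice was made with the filtered peaks of these libraries in view, so the presence and number of peaks in a member are a description with no test.

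The study asked which RNAs are bound by IGF2BP3, an RNA-binding protein, in murine leukemia driven by MLL-Af4. MLL-Af4 is a fusion oncoprotein, delivered by a retrovirus as FLAG-tagged MLL-Af4. Lin- cells were lineage-depleted bone marrow cells that were transduced with the virus, selected with G418 and cultured with cytokines, SCF, IL-6 and FLT3 ligand among them. CD11b+ cells were selected on magnetic columns with a CD11b antibody from splenic tumors of transplanted mice, so a tumor can also bring along CD11b+ cells of the host. In eCLIP, protein and RNA are cross-linked by UV light, IGF2BP3 is precipitated with an antibody, and the bound RNA fragments are sequenced. Each eCLIP library has a size-matched input, RNA of the same fragment size without the precipitation. Lin- cells gave 6 eCLIP libraries, of which the labels call 3 biological replicates and 3 technical ones. CD11b+ cells gave 4, with 2 of each kind. The study gives WT/MLL-Af4 cells as their source. The 12 RNA-seq libraries, 3 of each genotype in each cell type, compared WT/MLL-Af4 with I3KO/MLL-Af4 cells. For transplantation the donors were CD45.2+ C57BL/6J or I3KO mice, and lethally irradiated CD45.1+ B6.SJL-Ptprc-Pep3/BoyJ mice received the marrow. Donors and recipients were female and 8 weeks old. I3KO is a germline deletion of Igf2bp3 that arose from a Vav1-Cre cross, and all groups carried MLL-Af4. The labels do not say which biological library a technical library repeats, and separate cultures or mice are not named for the biological ones.

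Cathepsins are made as inactive proenzymes, carried to the lysosome mainly by mannose 6-phosphate receptors, and matured there by proteolysis in acid. Ctsb, Ctsl, Ctss and Ctsk encode cysteine endopeptidases (cathepsin B also trims dipeptides), Ctsh and Ctsc encode aminopeptidases, and Ctsz and Ctsa encode carboxypeptidases. Cathepsin D is an aspartic protease, and legumain, the product of Lgmn, cuts after asparagine. Monocytes and macrophages are rich in these enzymes. Cathepsin S and legumain take part in processing antigens for MHC class II, cathepsin C activates the granule serine proteases of myeloid cells, and cathepsin K is best known as the collagenase of osteoclasts.

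Altogether 76 filtered peaks lay in 7 of the 10 members, of 74378 filtered peaks in the 10 libraries. Same-strand peaks that overlapped by at least 1 base were joined across libraries, which gave 38 sites in the members of 32259 sites in all. A single library supported 22 of the 38, where the share over all sites was 57.8%, and both cell types supported 8, where it was 15.1%. The sequences that carry the pattern are printed here in genome letters of GRCm38.p6 on the transcribed strand, 5′ to 3′, with exon bases of the reference transcript in capitals and intron bases in lower case. Sites are numbered by rising genome coordinate within each gene. The first group shows sites that run over the 3′ end of an intron, where the letters change case after ag.
Ctsz site 1 (chr2:174433648-174433718, minus strand): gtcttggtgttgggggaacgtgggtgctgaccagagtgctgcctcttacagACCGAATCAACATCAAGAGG
Ctsa site 3 (chr2:164834260-164834327, plus strand): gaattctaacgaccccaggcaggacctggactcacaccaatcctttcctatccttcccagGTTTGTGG
Ctsa site 7 (chr2:164835105-164835162, plus strand): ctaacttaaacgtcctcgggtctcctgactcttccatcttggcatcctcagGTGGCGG
Ctsd site 5 (chr7:142383540-142383586, minus strand): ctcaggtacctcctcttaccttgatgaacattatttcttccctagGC
Ctsh site 6 (chr9:90071781-90071820, plus strand): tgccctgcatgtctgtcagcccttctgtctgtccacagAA
The second group shows sites that run from an exon into the start of the next intron, where the lower case begins with gt.
Ctsb site 6 (chr14:63136495-63136565, plus strand): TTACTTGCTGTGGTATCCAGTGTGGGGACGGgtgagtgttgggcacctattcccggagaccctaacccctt
Ctsd site 4 (chr7:142383392-142383458, minus strand): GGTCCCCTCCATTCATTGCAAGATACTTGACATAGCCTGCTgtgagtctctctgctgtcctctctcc
The third group shows intronic sites away from the splice sites or with a marked base composition.
Ctsh site 3 (chr9:90059702-90059788, plus strand): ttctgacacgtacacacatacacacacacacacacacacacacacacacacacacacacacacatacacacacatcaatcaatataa
Ctsh site 2 (chr9:90055745-90055799, plus strand): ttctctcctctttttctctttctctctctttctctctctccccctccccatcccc
Ctsa site 11 (chr2:164837564-164837622, plus strand): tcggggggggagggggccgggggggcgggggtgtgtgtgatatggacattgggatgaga
The last pair gives the middle 30 bases of the Ctsb sites in the first exon and in the last exon, both untranslated.
Ctsb site 1 (chr14:63122530-63122559, plus strand): TGGTGGCTGCAGGCCCAGGCTGTCGCGCTG
Ctsb site 7 (chr14:63142602-63142631, plus strand): CCTGCTGTTGTGGCTCTGCCTGCCATACCT

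The eCLIP libraries held between 4040 and 10054 filtered peaks, and the reads in these peaks summed to between 35663 and 233695 a library. The filter on the input had removed between 10.8% and 25.9% of the peaks of a library, but none of the 76 member peaks: the number in each library was the same before it. The 10 input libraries had between 217 and 1885 peaks of their own, and none of these lay in a member, by gene ID or by overlap with the gene body. Lin- libraries 2 (biological) and 5 (technical) stood apart from the others in where their peaks lay. Of all their filtered peaks 60.4% and 58.2% were intronic, against 76.8% to 86.9% in the other 8 libraries. As markers, Kit, the receptor for stem cell factor, had a mean of 6974 normalised counts in the Lin- table and 673 in the CD11b+ table, and Csf1r, the macrophage colony-stimulating factor receptor, had 7910 and 15008. The tables were scaled separately, so these means are set side by side without a test. Over the lists, 5 progenitor markers ranged from 2453 to 9624 and from 238 to 1291, and the 7 monocyte markers in both tables from 166 to 20990 and from 35.5 to 72146. Of these 7, Fcgr1 went the other way from Csf1r, with 166 in the Lin- table and 35.5 in the CD11b+ table. Itgam, which encodes CD11b itself, had a mean of 17.0 in the CD11b+ table and was absent from the Lin- table. The markers of T and NK cells that were read had means of at most 5.63 in either table. Those of B cells were at most 5.77 in the Lin- table and between 69.1 and 146 in the CD11b+ table, the neutrophil markers reached 3544 and 39348, and the erythroid markers reached 79.1 and 1268. The megakaryocyte markers reached 1922 and 42.9, and of the stromal and endothelial ones Cdh5 had 33.0 and 7.33 and Col1a1 25.7 and 32.6, with Pecam1 at 7064 and 3852. The part of other cells in the values of the members was not tested.

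**Figure D1:**
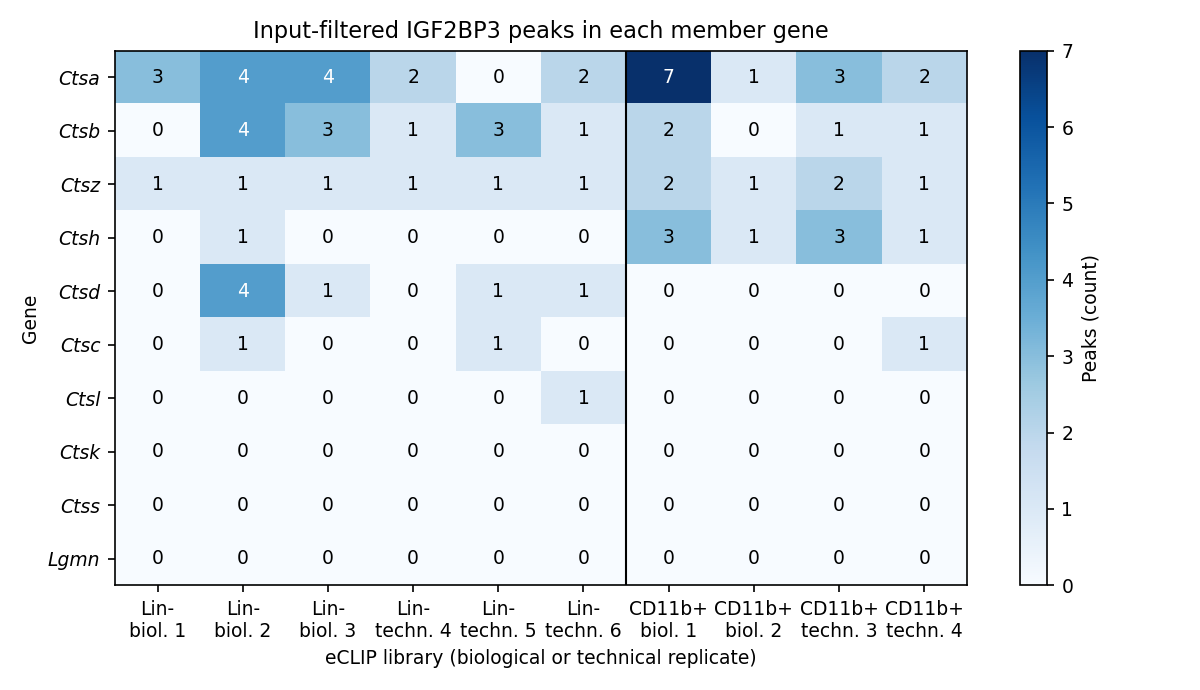
Input-filtered IGF2BP3 peaks (count, shown as number and shade) in each member gene (rows) and each eCLIP library (columns, Lin- left of the line and CD11b+ right of it). Ctsz is the 1 gene with a peak in all 10 libraries, while Ctsk, Ctss and Lgmn have none.

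Of the members, 7 had a filtered peak in at least 1 Lin- library (Ctsa, Ctsb, Ctsc, Ctsd, Ctsh, Ctsl and Ctsz) and 5 in at least 1 CD11b+ library (Ctsa, Ctsb, Ctsc, Ctsh and Ctsz). Over all genes of the tables the same call was made for 26.5% in Lin- and 25.6% in CD11b+ cells. Among genes with a mean of at least 1000 normalised counts it was made for 76.5% in Lin- cells, with 7 of 9 such members, and for 68.4% in CD11b+ cells, with 5 of 7. The 5 CD11b+ genes all had a Lin- peak too, where 19.4% of the genes in both tables had a peak in both cell types. Called in at least 2 biological libraries were 4 members in Lin- cells (Ctsa, Ctsb, Ctsd and Ctsz) and 3 in CD11b+ cells (Ctsa, Ctsh and Ctsz), against 13.7% and 10.2% of all genes. In every library of a cell type a peak was called for 1 member in Lin- (Ctsz) and 3 in CD11b+ cells (Ctsa, Ctsh and Ctsz), against 3.16% and 6.32% of all genes. Ctsz was called in all 10 libraries, as were 1.96% of the genes in both tables. Since the members were chosen with these peaks known, nothing is read from these shares. Without Lin- libraries 2 and 5, an alternative added after the data were seen, 5 members had a Lin- peak.

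In Lin- biological libraries 1, 2 and 3 the members held 4, 15 and 9 peaks, or 0.543, 1.49 and 1.04 per 1000 filtered peaks, and the technical libraries had 0.990, 0.924 and 1.33. In CD11b+ biological libraries 1 and 2 they held 14 and 3 peaks, or 1.64 and 0.298 per 1000, and the technical libraries had 1.19 and 0.847. The mean over biological libraries was 1.02 ± 0.475 per 1000 (SD, n = 3) in Lin- and 0.971 ± 0.951 (SD, n = 2) in CD11b+ cells. The CD11b+ range enclosed the whole Lin- range.

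Ctsz (ENSMUSG00000016256, chr2:174427493-174439039, minus strand, mm10) had the most regular binding. Its site 1, over the end of intron 2 and the first bases of exon 3, had a peak in every one of the 10 libraries, as did 208 of the 32259 sites, or 0.645%. The peak held 10, 7 and 16 reads in Lin- biological libraries 1 to 3 and 6, 7 and 12 reads in the Lin- technical libraries. It held 25 and 22 reads in the CD11b+ biological and 15 and 10 in the CD11b+ technical libraries. The CD11b+ biological values lay above all Lin- values, but the technical ones did not. Per 10000 reads in the filtered peaks of the library, the values were 1.21, 0.300 and 2.19 in the Lin- biological and 2.29 and 1.36 in the CD11b+ biological libraries. On that scale the groups overlapped. Ctsz also had a peak inside intron 2, 1112 bases from the nearest splice site, in CD11b+ libraries 1 and 3 with 11 and 4 reads.

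Ctsa (ENSMUSG00000017760, chr2:164832873-164841032, plus strand), which encodes protective protein, a serine carboxypeptidase that also stabilises β-galactosidase and neuraminidase, had the most peaks and the most sites. Its biological libraries had 3, 4 and 4 peaks in Lin- and 7 and 1 in CD11b+ cells, and the technical ones 2, 0 and 2 in Lin- and 3 and 2 in CD11b+ cells. The counts of the cell types overlapped. Altogether 28 peaks formed 13 sites, of which 11 were intronic and 5 were found in both cell types. Site 3, at the end of intron 3, was read in CD11b+ libraries 1, 2 and 3 with 31, 18 and 34 reads and had no peak in library 4. In Lin- cells it was called in libraries 2 and 4, with 14 and 5 reads. The deposited CLIPper p of this site reached 1.28e-31, the lowest of any member peak. Site 2 ran from exon 3 into the same intron, with its middle 7 bases from the 5′ splice site. It was called only in Lin- libraries, with 3, 6 and 5 reads in libraries 1, 3 and 6. Sites 6 and 7, at the ends of introns 5 and 6, were each called in 2 libraries of either cell type, with 28 and 34 reads in all.

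**Figure D2:**
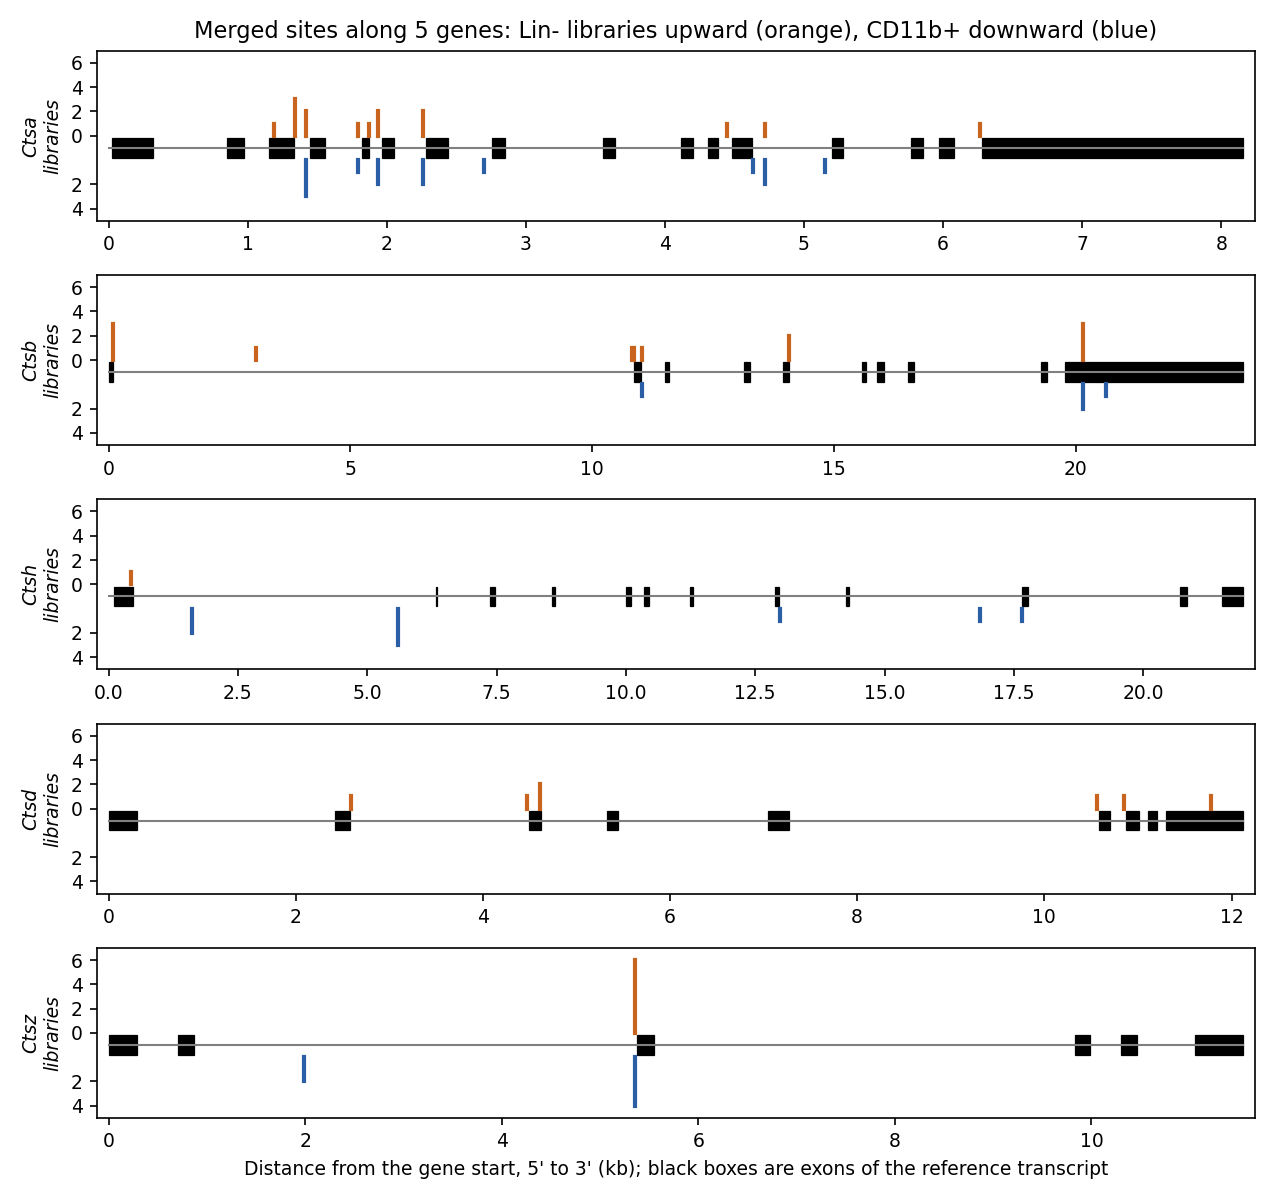
Merged sites along 5 members by distance from the gene start (kb), with exons as black boxes and bar height giving the number of libraries with a peak at the site (Lin- upward, of 6, and CD11b+ downward, of 4). Ctsa sites crowd among its short introns, the Ctsz bar of 6 and 4 libraries stands at the start of exon 3, and all Ctsd bars point upward.

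Ctsb (ENSMUSG00000021939, chr14:63122462-63145923, plus strand) had 0, 4 and 3 peaks in the Lin- biological libraries and 1, 3 and 1 in the technical ones, against 2 and 0 and then 1 and 1 in CD11b+ cells. Lin- library 1 and CD11b+ library 2, both biological, had none. Site 1, in the 5′ untranslated part of exon 1, was called in Lin- libraries 2, 3 and 5 with 29, 4 and 16 reads and in no CD11b+ library. Site 7, in the 3′ untranslated part of exon 10, the last one, had 15, 6 and 8 reads in Lin- libraries 2, 5 and 6, and 5 and 4 reads in CD11b+ technical libraries 3 and 4. The most reads at both sites were in Lin- library 2, which also had the most reads in filtered peaks. Per 10000 reads in the filtered peaks of the library, site 1 had 1.24, 0.548 and 1.18 in Lin- libraries 2, 3 and 5. Site 7 had 0.642, 0.443 and 2.24 in Lin- libraries 2, 5 and 6, so that library 6 was highest there. In all, of the 12 Lin- Ctsb peaks 7 were in libraries 2 and 5. Of all 16 Ctsb peaks 6 were intronic, against 26 of 28 in Ctsa and 12 of 12 in Ctsz.

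The aminopeptidase genes differed from each other. Ctsh (ENSMUSG00000032359, chr9:90054152-90076089, plus strand) had 3 and 1 peaks in the CD11b+ biological and 3 and 1 in the CD11b+ technical libraries. In Lin- cells it had a single peak, in library 2, with 13 reads in exon 1, at a site that no CD11b+ library shared. None of its 6 sites was common to the cell types, and of all sites only 15.1% were. Site 3, the repeat printed above, lay in intron 1, 734 bases from the nearest splice site, and held 11, 10 and 12 reads in CD11b+ libraries 1, 3 and 4. CD11b+ biological library 2 had no peak there. By transcript level Ctsh had a mean of 1555 normalised counts, at percentile 82.8 of the Lin- table, and 3732, at percentile 95.7 of the CD11b+ table. Ctsc (ENSMUSG00000030560, chr7:88278085-88310888, plus strand) had 1 peak each in Lin- libraries 2 and 5, with 3 and 5 reads in exon 1, and 1 in CD11b+ technical library 4, with 6 reads at the end of intron 2.

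Ctsd (ENSMUSG00000007891, chr7:142375911-142388038, minus strand) had 0, 4 and 1 peaks in the Lin- biological libraries and 0, 1 and 1 in the technical ones, and no peak in any CD11b+ library. Its rank was close in both tables, at percentiles 95.8 and 95.2. Among genes with a mean of at least 1000 normalised counts in CD11b+ cells 68.4% had a peak there, and the rest, like Ctsd, had none. A difference between the cell types was not tested. The 7 peaks fell on 6 sites, 5 of them seen in 1 library each. Site 4, at the end of exon 3, was seen in Lin- libraries 2 and 6 with 9 and 3 reads. Sites 1, 2 and 3 also lie inside Gm49369, an annotated gene on the same strand, so their reads cannot be told apart from reads of that transcript. Ctsl (ENSMUSG00000021477, chr13:64359337-64370890, minus strand) had 1 peak of 3 reads, in intron 5 in Lin- technical library 6, the fewest reads that any filtered peak had.

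Ctss (ENSMUSG00000038642, chr3:95526786-95556403, plus strand), Lgmn (ENSMUSG00000021190, chr12:102394084-102439813, minus strand) and Ctsk (ENSMUSG00000028111, chr3:95499256-95509362, plus strand) had no peak in any library, before the filter or after it. Ctss was at the same time among the abundant transcripts, with means of 5578 and 3785 normalised counts at percentiles 96.3 in Lin- and 95.8 in CD11b+ cells. Of the 988 genes with a mean at least as high in Lin- cells, 102 (10.3%) had no peak in any Lin- library, Ctss included. In CD11b+ cells it was 318 of 1085 genes (29.3%). Lgmn had means of 2483 and 366, at percentiles 89.2 and 68.3. Of the genes at least as high as Lgmn, 360 of 2863 (12.6%) had no peak in Lin- cells and 3435 of 8205 (41.9%) none in CD11b+ cells. Ctsk was low in both tables, with means of 45.8 and 4.56. Among genes at least as high as Ctsk, 52.8% had no peak in Lin- and 65.9% none in CD11b+ cells. The files list called peaks only, so a gene without one may still have had reads.

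**Figure D3:**
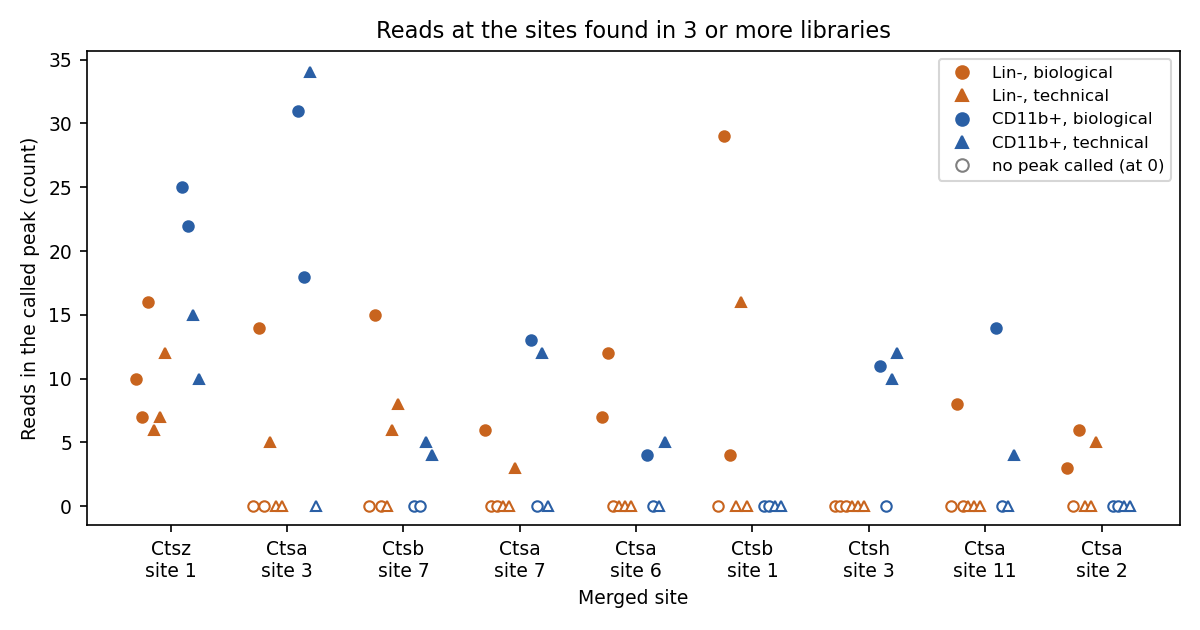
Reads in the called peak (count) at the 9 member sites found in 3 or more libraries, 1 point per library, with biological libraries as circles, technical ones as triangles and open symbols at 0 where no peak was called. Only Ctsz site 1 has no open symbol, and Ctsh site 3 has points above 0 in CD11b+ cells alone.

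The position of the peaks was not used to choose the members and was compared between the cell types. A peak was called intronic when its middle lay in no annotated exon of its gene. In Lin- biological libraries 1, 2 and 3 the intron share of the member peaks was 100% (4 of 4), 53.3% (8 of 15) and 77.8% (7 of 9), and in the CD11b+ biological libraries it was 92.9% (13 of 14) and 100% (3 of 3). The ranges overlapped. Means were 77.0% ± 23.3 (SD, n = 3) and 96.4% ± 5.05 (SD, n = 2), a difference of 19.4 percentage points. By an exact permutation test over libraries, two-sided, p was 0.5, where the smallest p that 3 against 2 libraries allow is 0.1. At these depths the 95% Wilson interval of the share was 30.1% to 75.2% in Lin- library 2 and 43.9% to 100% in CD11b+ library 2, and it covers counting error only. Technical libraries had 100%, 33.3% and 83.3% in Lin- and 88.9% and 83.3% in CD11b+ cells. The low values were those of Lin- libraries 2 and 5, whose peaks over all genes were also less often intronic. Over the biological and technical libraries without these 2, an alternative added after the data were seen, the means were 90.3% in Lin- and 91.3% in CD11b+ cells. The 2 libraries were set apart by the intron share of all their peaks, which bears on the value compared. Technical libraries are also not independent of the biological ones, so these means are a description. When a peak counted as exonic with any overlap of an exon, the difference between biological libraries was 29.8 points, with an exact permutation p of 0.1. By the midpoint, the mean intron share of all filtered peaks placed in their genes was also higher in CD11b+ cells. It was 73.8% over the Lin- and 82.3% over the CD11b+ biological libraries.

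Of the 38 sites 28 had their middle in an intron (73.7%), 5 in a coding exon, 2 in a 5′ and 3 in a 3′ untranslated part. Over all sites with an annotated gene, 82.3% were intronic. Many member sites hugged the splice sites. The middle of 28 of the 38 sites (73.7%) was within 100 bases of a splice site of the reference transcript, with a median distance of 26.5 bases. Over 30923 sites of all genes 46.2% were that near, with a median of 182 bases. In the 7 members with a site, 16.2% of the gene length lies within 100 bases of a splice site. That share was not worked out over all genes, and the part of gene and intron length in this contrast was not tested. Of the 28 near sites, 17 were closest to a 3′ splice site, 15 of these with their middle in the intron, and 11 to a 5′ splice site. Ctsa, whose introns are short, gave 13 of the 28, and 51.1% of its length is that near a splice site. The other 6 genes gave 15 near sites of 25. Neighboring sites of a gene share its transcript and are not independent, so no test was made.

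**Figure D4:**
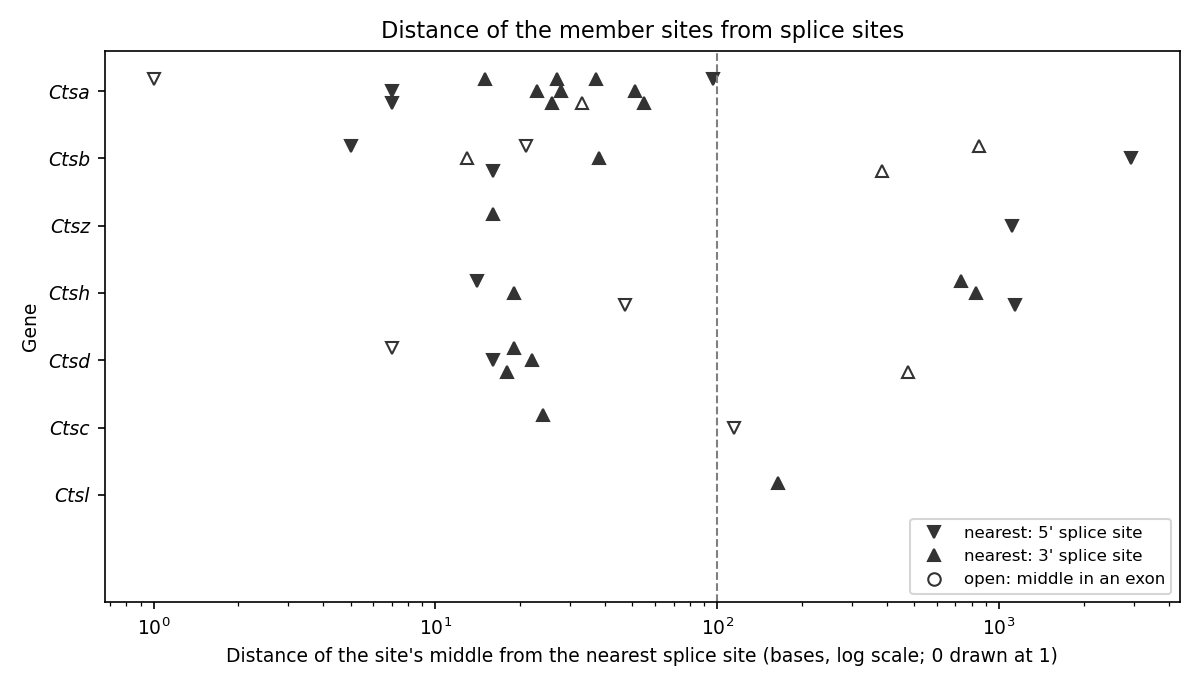
Distance of the middle of each of the 38 member sites from the nearest splice site (bases, log scale, 1 symbol per site), by gene. Downward triangles are nearest to a 5′ and upward ones to a 3′ splice site, open symbols have their middle in an exon, and 28 symbols lie left of the dashed line at 100 bases.

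IGF2BP3 is known to favor CA-rich RNA, and letters of this kind were counted in windows of 61 bases centred on the strongest peak of each site, on the transcribed strand only. CACA was in 7 of 38 member windows (18.4%) and in 25.0% of the windows of all sites. ACACAC, which contains CACA, was in 2 member windows (5.26%) and in 11.3% of all. Ctsh site 3 is made almost wholly of this repeat, with 26 overlapping copies of CACA in its 87 bases, and Ctsl site 1 had 2. Whether the reads of Ctsh site 3 could come from copies of this repeat elsewhere in the genome was not tested. None of the 71 bases of Ctsz site 1, found in all libraries, spells CACA. GGCA was in 12 member windows (31.6%) against 17.0% of all, and GGAC in 7 (18.4%) against 13.4%. Members also differed widely in composition: 98.2% of the letters of Ctsh site 2 were pyrimidines, against 25.4% in the G-rich Ctsa site 11. The median window of the member sites was 54.1% G or C and that of all sites 50.8%.

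Levels between genes were compared as the authors' mean normalised count per kilobase of annotated exons. The deposited mean pools both genotypes, carries no error, and was scaled separately for each cell type, so ranks only are set side by side. In Lin- cells Ctsb led with 6542 per kb, ahead of Ctsz with 4428, Ctss with 4108, Ctsd with 2418 and Ctsa with 2144. In CD11b+ cells Ctsz led with 4693 per kb, and Ctss (2787), Ctsb (2741) and Ctsa (2719) followed close together, ahead of Ctsh with 2308. Ctsk was last in both, with 30.3 and 3.02 per kb. Ctsh was seventh in the Lin- order and above Ctsd in the CD11b+ order. Lgmn, with 1230 and 182 per kb, stood at percentile 93.0 of the Lin- and 71.7 of the CD11b+ table on that scale. The median member stood at percentile 93.2 of the Lin- and 95.5 of the CD11b+ table by the count itself. The order of the levels was not that of the peaks. Ctss, next after Ctsz in either order, had none, while Ctsc with 523 and 349 per kb had a peak in both cell types.

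**Figure D5:**
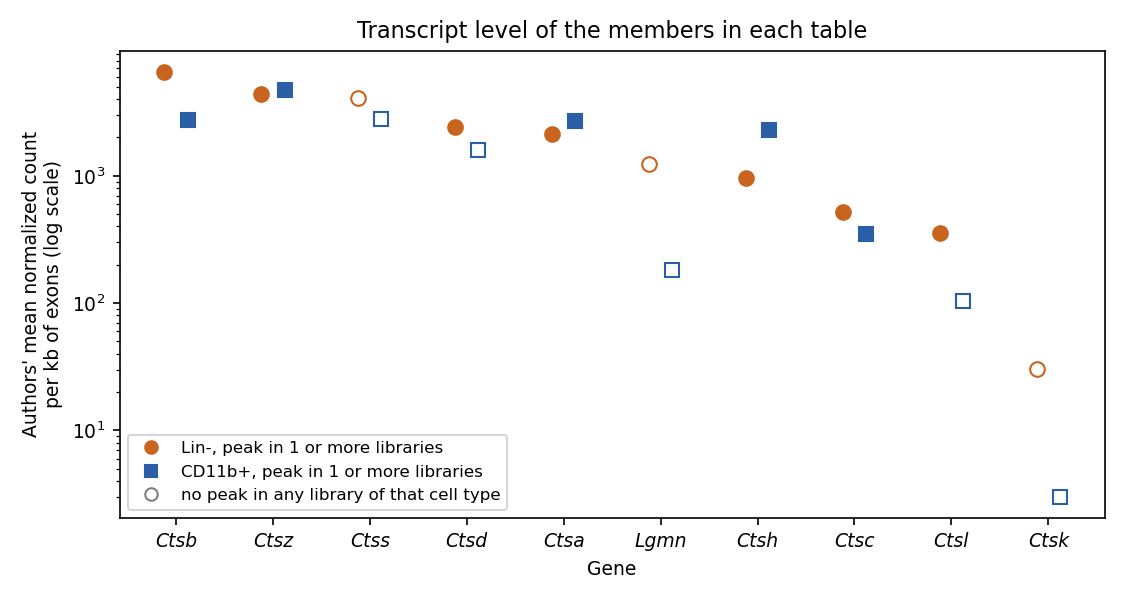
Authors' mean normalised count per kb of exons (log axis) of the 10 members in the Lin- table (orange circles) and the CD11b+ table (blue squares), with open symbols where no library of that cell type had a peak. Ctss is open in both cell types at 4108 and 2787 per kb, and Ctsk is lowest at 30.3 and 3.02.

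Other lysosomal genes, in lists drawn up with results of these data known, are given for comparison. Of 30 acid hydrolases 19 had a peak in Lin- and 23 in CD11b+ cells, and Man2b1 and Dnase2a, among those with the most sites, had 9 and 6. All 4 of Psap, Grn, Npc2 and Gm2a, cofactors and carriers of lysosomal digestion, had peaks in both cell types, with 11, 6 and 4 sites in the first 3. Of 15 membrane proteins and proton pump subunits 11 and 14 had a peak, led by Lamp2, Tcirg1 and Laptm5 with 12, 11 and 9 sites. Of 7 sorting receptors and mannose 6-phosphate enzymes 4 and 5 had one, led by Gnptab with 8 sites and M6pr and Sort1 with 6 each. Cystatins and stefins inhibit the cysteine cathepsins, and 2 and 3 of these 8 had a peak, led by Cst3 with 4 sites, then Stfa2l1 with 2 and Cstb with 1. Of 5 other cathepsin genes, Ctsg, a serine protease of granules, had 4 sites in 7 libraries and Ctse 1 site, and Ctsf, Ctso and Ctsw had none. The transcription factor genes Tfeb, Mitf and Tfe3 had 14, 3 and 1 sites, with Tfeb bound in 4 libraries of each cell type. Cd74, the invariant chain that cathepsin S cleaves, had 2 sites, in 4 Lin- and 1 CD11b+ libraries. Altogether 43 of these 73 genes had a peak in Lin-, 55 in CD11b+ and 38 in both cell types. Over all genes these calls were made for 26.5%, 25.6% and 19.4%. Among genes with a mean of at least 1000 normalised counts they were made for 76.5% in Lin- and 68.4% in CD11b+ cells. Nothing is read from the counts of the lists. The genes outside these lists whose peak counts over the 10 libraries were most like those of Ctsa were Msl1 (Pearson r = 0.94), Tmpo (0.87) and Nisch (0.87), among 826 genes with a peak in at least 9 libraries. The points share library depth, so these are descriptions.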

How the data were processed

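Members and gene lists were chosen with earlier results of these data known. The authors called eCLIP peaks with CLIPper and removed those overlapping size-matched input peaks; the submitters' notes name mm10, STAR 2.5.3a, Bowtie2 and DESeq2. Each deposited peak file gives, per peak, a gene ID, a read number and other values, among them the CLIPper p (0 to 0.05). The deposited RNA-seq tables gave a mean normalised count per gene over both genotypes (a signal scaled by the authors), used here without error or depth. Their other columns (fold change, its error, statistic, p-value, adjusted p-value, peak flags) are the authors' own comparison and were not used, so no knockout effect is given. Sequencing depth is not in these files. With Python 3.11.15 and SciPy 1.17.1, peaks were assigned by gene ID, merged on overlap, and placed by their midpoint on GENCODE M21 exons; the reference transcript was the longest principal one. Sequences came from RefSeq GRCm38.p6 through samtools 1.23.1 (all 10 annotated member start codons were found there). The single test, of the intron share, was an exact permutation test over biological libraries. Steps were tested on simulated data. All 10 members are named, with the 3 genes per other list that had most sites (1 of them is not reported here), markers by list, and the 3 genes most like Ctsa. Alternatives were the unfiltered peaks, a CLIPper p under 0.001, assignment by gene body, other library choices and other scales.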

Additional observations from a re-analysis of the deposited data

Results flagged for a closer look

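Peak counts of each gene were compared within the 6 Lin- and the 4 CD11b+ libraries, and a library was listed when its gap to the nearest other one was large against the whole range by Dixon's test. Of 15 sets of values 4 were listed. The nominal rate of the test, 1 in 20, does not hold for small counts with many ties, so the number listed is a description only. In Lin- cells biological library 2 had 4 peaks in Ctsd and the other 5 had 0 or 1. The same library had the 1 Lin- peak in Ctsh, with 0 in the others. Technical library 6 had the 1 Lin- peak in Ctsl, and in CD11b+ cells technical library 4 had the 1 peak in Ctsc. With counts of 0 and 1 a single peak is enough to be listed. Lin- library 2 also had the most reads in filtered peaks, 233695, and 60.4% of its peaks in introns, and the part of these in its Ctsd and Ctsh peaks was not tested.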

How the results depend on the processing

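For the results with no test, 37 of 47 alternative values stayed within the spread between replicates or 1.5 times the count reported. For the intron share the p-values say nothing about stability, since 3 against 2 libraries cannot pass 0.05, and the size of the difference moved with the libraries used. Requiring a peak in at least 2 biological libraries left 4 members in Lin- and 3 in CD11b+ cells in place of 7 and 5. A CLIPper p below 0.001 left 14 of 27 sites in Lin- and 11 of 19 in CD11b+ cells. Without the Lin- libraries 2 and 5, an alternative added after the data were seen, Lin- cells had 17 sites. Leaving out 1 biological library gave 20 to 27 sites in Lin- and 12 to 19 in CD11b+ cells, where biological library 1 decides the lowest value. These drops follow from fewer peaks or libraries. The median percentile of the members was 89.1 in Lin- and 93.2 in CD11b+ cells among genes with a mean of at least 10, and 94.8 and 95.7 per kilobase of exons, against 93.2 and 95.5. The difference in intron share was positive under every alternative, between 7.54 and 30.9 points when 1 biological library was left out, the lowest without Lin- library 2, 13.3 points at a CLIPper p below 0.001, and 0.992 points over all libraries without Lin- libraries 2 and 5. With replicate numbers 1 and 2 as a replicate block it was 19.8 points (exact permutation p = 1), from -7.14 and 46.7 in the pairs. The labels do not say that equal numbers mark a shared source, and 2 pairs are too few to check it. Depth limits the shares, since 3 to 15 member peaks stand behind each library.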
